A study of Emberiza bruniceps with 4 samples.

Results

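The genes described here encode voltage-gated sodium channels, voltage-gated calcium channels and transient receptor potential (TRP) channels in the hypothalamus of the red-headed bunting (Emberiza bruniceps), a migratory songbird. They were chosen by protein name. Each assembled contig took the name of its best collared flycatcher protein match (e-value at most 1e-05), and names were kept that start with "sodium channel", "transient receptor potential" or "hyperpolarization-activated", or that start with "voltage-dependent" and contain "calcium channel". The rule found 43 of 11946 protein names, 10 for sodium channels, 12 for TRP channels and 21 for calcium channels. No name starts with "hyperpolarization-activated", since the flycatcher names of those channels begin with "potassium/sodium", so they lie outside the rule, and HCN3 and HCN4 are given further on. Of the 43 names, 38 averaged at least 1 CPM (counts divided by library size) over the libraries and were compared, out of 10557 genes.

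Voltage-gated sodium channels open on depolarization and carry the upstroke of the action potential, and their beta subunits are membrane proteins that tune gating and place the channel on the axon. Voltage-gated calcium channels turn depolarization into calcium entry for transmitter release, pacemaking and gene regulation. Each has a pore-forming alpha-1 subunit, and many, though not all, also have alpha-2/delta and beta subunits that bring it to the membrane. TRP channels are cation channels opened by heat, cold, lipids, osmotic stretch or oxidative signals, and several of them sense temperature or osmolality in the mammalian hypothalamus.

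RNA came from hypothalami of wild-caught buntings, and each of 4 groups was represented by 1 library: castrated birds in spring, castrated birds in autumn, intact birds in spring and intact birds in autumn. The labels give neither the number, sex or age of birds in a library nor the time since castration, and all birds were wild-caught. With 1 library per group no spread within a group can be measured. A ratio between 2 libraries compares those libraries and not the conditions. Genes were therefore called by size, at 2-fold, on the log2 scale of CPM after adding 0.5 CPM, and the ranges beside ratios are 95% exact binomial intervals for counting error only. Since the reads carry no molecular identifiers, copies of a molecule count more than once and these intervals may be too narrow.

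The libraries held 16840270 to 26213011 estimated counts, of which 39.1% to 41.7% fell on contigs with a protein name. Markers of tissue differed with gonadal state. Over all genes, 9.61% were 2-fold lower and 4.53% 2-fold higher in both castrated libraries. Of 14 measured telencephalon markers, 11 were lower by 2-fold or more in both castrated libraries and 2 higher. The list summed to 439 and 438 CPM in castrated birds of spring and autumn, against 2475 and 2663 CPM in intact birds. Of 12 midbrain and hindbrain markers, 11 were higher in both castrated libraries (827 and 584 CPM against 41.5 and 43.9 CPM), with HOXA3 and HOXD3 at 0 counts in both intact libraries. Of 12 pituitary markers, 10 were higher (1932 and 1547 CPM against 417 and 426 CPM). CHGA alone gave 990 and 992 CPM of these sums in castrated and 409 and 425 CPM in intact birds. Of 11 matched hypothalamus markers, 10 were detected in all 4 libraries, with summed levels of 185 and 187 CPM in the castrated against 277 and 280 CPM in the intact libraries, and 2 of 10 measured, NPY and NKX2-1, were lower in both castrated ones. NPY alone gave 13.3 and 27.2 CPM of these sums in castrated and 117 and 141 CPM in intact birds. The median log2 ratio of castrated over intact of the 10 was 0.11 in spring and -0.38 in autumn. Neuron markers went both ways. Of 7 measured, 3 were 2-fold higher and none 2-fold lower in both castrated libraries, and SYT1 was at -1.09 in spring and -0.72 in autumn (log2 ratio of castrated over intact). The list summed to 7597 and 6788 CPM in castrated against 4734 and 4221 CPM in intact birds. An effect of gonadal state and a difference in the tissue taken cannot be told apart in any castration ratio below. In bulk tissue, fewer cells of a type and less RNA per cell cannot be told apart either.

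Channel genes stood mostly lower in the castrated libraries. In spring, 15 of the 38 were at least 2-fold lower in castrated than in intact birds, where 14.5% of all genes were, and 3 were higher, where 8.68% of all genes were. In autumn 14 were lower, beside 15.3% of all genes, and 5 were higher, beside 12.3%. The 2 pairs share no library, and 12 channel genes were lower in both (9.61% of all genes) while 2 were higher in both (4.53%). The median log2 ratio of the 38 was -0.68 in spring and -0.73 in autumn, against 0.01 and -0.01 over all genes. The ratio was below 0 for 26 of 38 in spring and 27 of 38 in autumn, against 49.4% and 50.6% of all genes. An additive edgeR quasi-likelihood fit with terms for gonadal state and season, over all 10557 genes, with 1 residual degree of freedom, called 15 of the 38 lower in castrated birds (14.3% of all genes) and 2 higher (8.12%) at an adjusted p under 0.05.

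**Figure D1:**
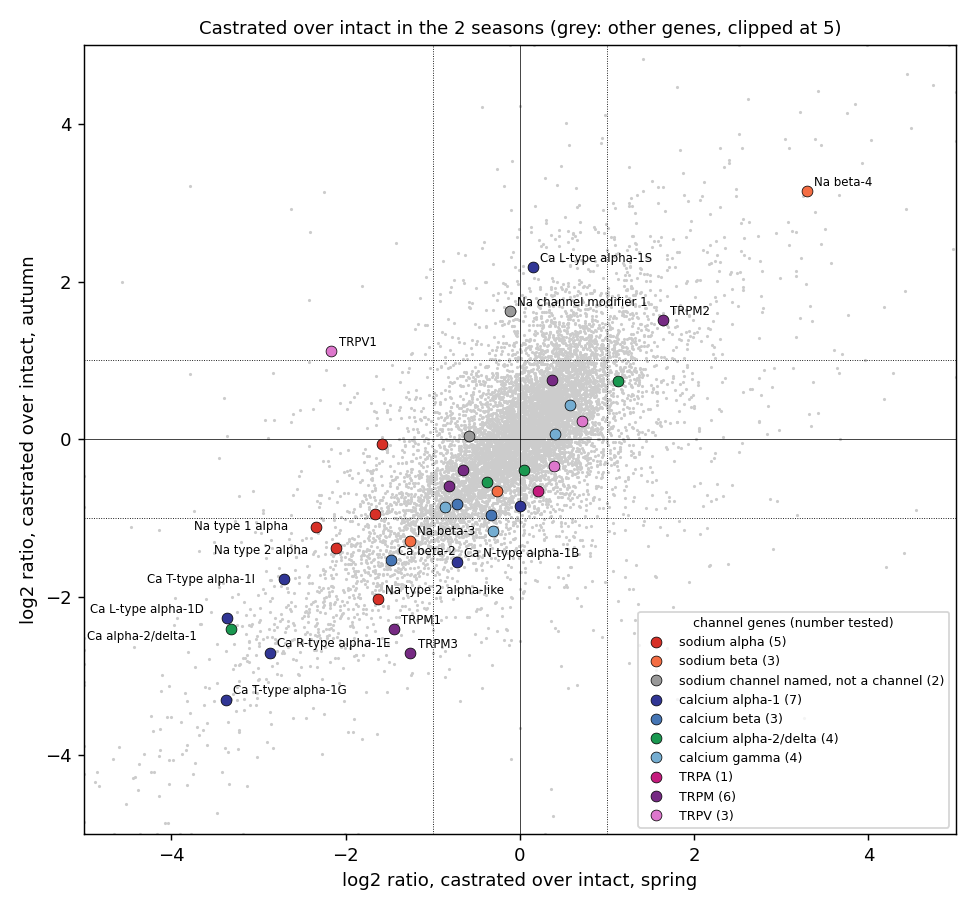
Log2 ratio of castrated over intact in spring (x axis) and in autumn (y axis) for the 38 channel genes measured (coloured by family) and all other genes (grey), with dotted lines at 2-fold. The 12 genes in the lower left corner are lower in both castrated libraries, sodium beta-4 and TRPM2 are higher in both, and TRPV1 lies alone in the upper left corner.

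All 5 names of pore-forming sodium channel subunits were below 0 in both castration pairs (beside 38.3% of all genes), and 3 of them were 2-fold lower in both (beside 9.61%). Per length, by summed TPM (a share of transcripts that divides by contig length), the highest mean over the 4 libraries was that of sodium channel protein type 2 subunit alpha-like, whose 25 contigs summed to 54.7 and 45.9 TPM in castrated birds of spring and autumn, against 273 and 177 TPM in intact birds. In CPM it stood at 206 (spring) and 134 (autumn) in castrated birds, against 639 (spring) and 547 (autumn) in intact birds. Both castrated libraries lay under both intact ones. The log2 ratios were -1.63 (-1.72 to -1.55) for spring and -2.02 (-2.12 to -1.94) for autumn. On its most abundant contig alone the spring ratio was -0.68, and with TPM it was -2.31.

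Sodium channel protein type 2 subunit alpha, in mammals a channel of excitatory neurons, stood at 28.5 and 38.9 CPM in castrated birds of spring and autumn, against 124 and 102 CPM in intact birds. Its ratios were -2.11 (-2.35 to -1.90) for spring and -1.38 (-1.57 to -1.21) for autumn. Both names of type 2 may stand for pieces of a few closely related genes, and reads can be shared among them. Sodium channel protein type 1 subunit alpha, which in mammals is the main sodium channel of fast-spiking inhibitory neurons, was the only one of the 5 that also differed 2-fold between the castrated libraries. It stood at 4.58 CPM in spring castrated and 11.9 CPM in autumn castrated birds, against 25.1 and 26.2 CPM in spring and autumn intact birds. The castration ratios were -2.34 (-3.05 to -1.91) for spring and -1.11 (-1.48 to -0.80) for autumn. Of its 2 contigs with at least 40 counts, the one covered over 23.5% of its length by the match stood at -2.62 and -1.81, and the one covered over 99.9% at -1.05 and -0.10, so the autumn call rests on the contig with the shorter match.

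The other 2 names were called lower in the spring pair and not in the autumn pair, and no test compared the seasons. Sodium channel protein type 5 subunit alpha-like, named for the cardiac channel of mammals, was at -1.66 (-2.19 to -1.28) in spring and at -0.94 (-1.37 to -0.59) in autumn, and the autumn ratio fell just short of 2-fold. Sodium channel protein type 8 subunit alpha-like, named for the channel of axon initial segments and nodes of Ranvier, rests on a single contig of 252 bases. It had 32 and 65 counts in castrated birds of spring and autumn, against 108 and 50 counts in intact birds, and its ratios were -1.59 (-2.31 to -1.11) for spring and -0.06 (-0.62 to 0.49) for autumn. The autumn libraries did not differ on it beyond counting error.

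Sodium channel beta subunits went apart. Sodium channel subunit beta-4, which in mammals is linked to the pore by a disulfide bond and supplies the blocking peptide behind resurgent current in cerebellar Purkinje cells, was the channel gene farthest higher in castrated birds. It stood at 76.6 CPM in the spring castrated and 63.7 CPM in the autumn castrated library, against 7.38 and 6.76 CPM in the intact libraries of spring and autumn. The ratios were 3.29 (2.97 to 3.81) for spring and 3.15 (2.82 to 3.68) for autumn. All 3 of its contigs with at least 40 counts were higher in both castrated libraries. The midbrain and hindbrain markers and the pituitary markers above moved the same way, and their part in this result was not tested.

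Sodium channel subunit beta-3, bound to the pore without a disulfide bond, went the other way. It stood at 159 and 137 CPM in the castrated libraries of spring and autumn, against 382 and 335 CPM in the intact ones. The ratios were -1.26 (-1.37 to -1.17) for spring and -1.28 (-1.38 to -1.19) for autumn. Its 3 contigs are near copies of the same protein, and one of them had ratios of 6.68 in spring and -4.10 in autumn, so the ratio rests on their sum. The most abundant of them stood at -1.83 in spring and -0.59 in autumn, and none is covered by its match over at least 50% of its length. Sodium channel subunit beta-2, the highest beta subunit per length by its mean over libraries and below beta-3 in both intact ones (48.5 and 34.4 TPM in castrated, 60.5 and 53.1 TPM in intact libraries), differed less. Its level was 183 and 127 CPM in castrated birds of spring and autumn, against 220 and 200 CPM in intact birds, with ratios of -0.26 (-0.37 to -0.16) and -0.66 (-0.77 to -0.55).

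The make-up of the beta family differed too. Sodium beta-4 held 18.3% and 19.4% of the counts of the 3 beta subunits in castrated birds of spring and autumn, against 1.21% and 1.25% in intact birds. Sodium beta-3 held 37.9% and 41.9% in castrated birds, against 62.7% and 61.8% in intact birds.

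Among names starting with "sodium channel", 2 are not channels. Sodium channel and clathrin linker 1, an adaptor that in mammals ties a sodium channel to clathrin, had ratios of -0.59 in spring and 0.05 in autumn. Sodium channel modifier 1, a zinc finger protein of RNA splicing in the mouse, stood at 5.15 and 8.54 CPM in castrated birds of spring and autumn, against 5.60 and 2.43 CPM in intact birds. It was 2-fold higher in castrated birds in autumn (1.62, 1.07 to 2.63) and not in spring (-0.11, -0.81 to 0.56).

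**Figure D2:**
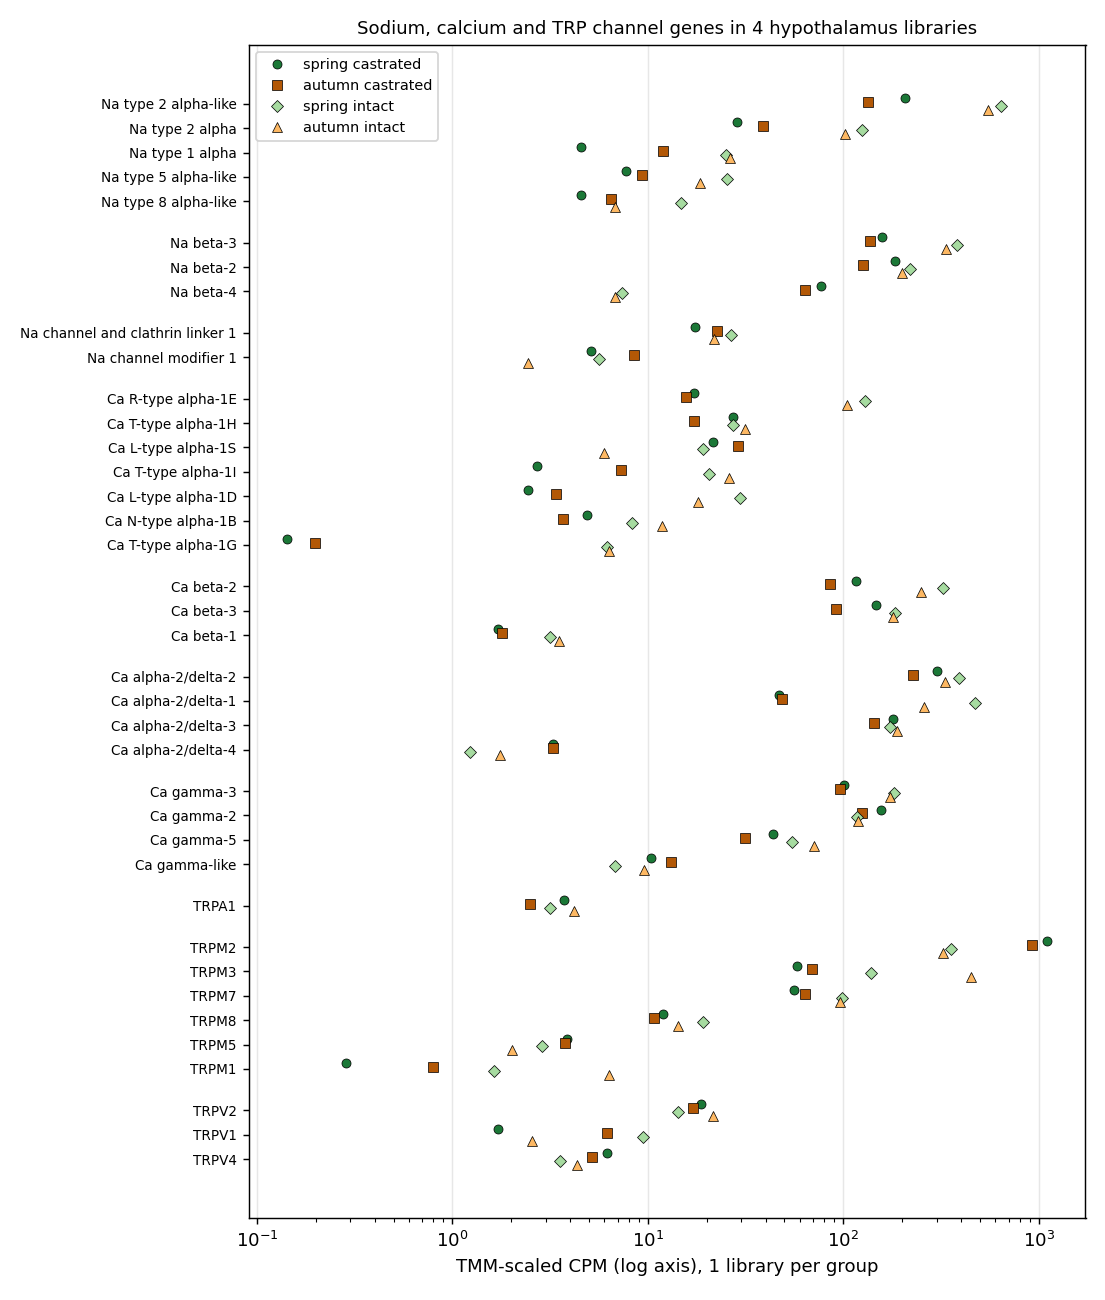
TMM-scaled CPM (log axis) of the 38 channel genes in each of the 4 libraries, grouped by family, 1 point per library. Castrated libraries (circles and squares) lie left of the intact ones for sodium alpha subunits, calcium alpha-1E, alpha-1D, alpha-1I and alpha-1G and alpha-2/delta-1, and right of them for sodium beta-4 and TRPM2.

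Of the 7 measured pore-forming calcium channel subunits, 4 reached 2-fold lower in both castrated libraries (beside 9.61% of all genes). Voltage-dependent R-type calcium channel subunit alpha-1E, which in mammals carries calcium current that resists most blockers, was the highest per length, at 14.7 and 12 TPM in castrated and 53.4 and 48.8 TPM in intact libraries. In CPM it stood at 17.3 (spring) and 15.6 (autumn) in castrated birds, against 129 (spring) and 104 (autumn) in intact birds. The ratios were -2.87 (-3.19 to -2.63) for spring and -2.70 (-3.0 to -2.49) for autumn, and with TPM they were -1.83 and -1.98. Of its 4 contigs with at least 40 counts, 3 were lower in both pairs and 1 was higher in both.

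Voltage-dependent L-type calcium channel subunit alpha-1D, a channel that opens at low voltage and paces many neurons and endocrine cells in mammals, had 17 and 34 counts in castrated birds of spring and autumn, against 217 and 134 counts in intact birds. Its levels were 2.43 and 3.37 CPM in castrated birds, against 29.6 and 18.1 CPM in intact birds. The ratios were -3.36 (-4.41 to -2.90) for spring and -2.26 (-3.01 to -1.87) for autumn. Both contigs were lower in both pairs.

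T-type channels open near the resting potential and drive burst firing. Voltage-dependent T-type calcium channel subunit alpha-1G was close to 0 in castrated birds, with 1 count in the spring and 2 counts in the autumn library, against 45 and 47 counts in the spring and autumn intact libraries. Its ratios were -3.37 (-10.76 to -2.87) for spring and -3.29 (-8.09 to -3.07) for autumn, where the added 0.5 CPM sets the size. The ratio was -4.68 in spring with 0.1 CPM added and -1.93 with 2 CPM added. With TPM it was 0.00 in autumn, where the 2 counts fell on a contig of 261 bases.

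Voltage-dependent T-type calcium channel subunit alpha-1I stood at 2.72 CPM in the spring castrated and 7.25 CPM in the autumn castrated library, against 20.5 and 26.0 CPM in the intact ones. The ratios were -2.71 (-3.69 to -2.22) for spring and -1.77 (-2.25 to -1.45) for autumn. The third T-type subunit, alpha-1H, was not called, with ratios of 0.01 (-0.29 to 0.30) for spring and -0.85 (-1.16 to -0.58) for autumn. The 3 T-type subunits thus differed among themselves within the same libraries.

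Voltage-dependent N-type calcium channel subunit alpha-1B, a channel of transmitter release, was 2-fold lower in castrated birds in autumn (-1.56, -2.28 to -1.11) and stood at -0.72 (-1.43 to -0.15) in spring. Its 2 contigs with at least 40 counts match at 69.3% identity over 7.1% of their length, so that their name is uncertain. The more abundant stood at -3.72 in spring and -3.26 in autumn, and the other at 0.53 and 0.65. A low contig matched at 100% identity over 99.8% had 14.7 counts in spring castrated and 0 in spring intact birds, and 3.91 and 5.90 in the autumn ones. Voltage-dependent L-type calcium channel subunit alpha-1S, known as the voltage sensor of skeletal muscle, went its own way. It had 150 counts in the spring castrated and 290 counts in the autumn castrated library, against 141 counts in the spring intact and 44 counts in the autumn intact library. Its levels were 21.4 and 28.8 CPM in castrated birds, against 19.3 and 5.95 CPM in intact birds. The autumn intact library alone was low, and the ratios were 0.15 (-0.19 to 0.50) for spring and 2.18 (1.81 to 2.77) for autumn. All 4 of its contigs with at least 40 counts were higher in the autumn castrated library. Of 9 skeletal muscle markers, 2 were matched, and their summed levels were 9.29 and 10.02 CPM in castrated birds of spring and autumn, against 6.15 and 3.24 CPM in intact birds. Their part in the alpha-1S result was not tested.

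The share of each pore subunit in the summed counts of the alpha-1 family also differed. Alpha-1E held 22.5% and 20.0% in castrated birds of spring and autumn, against 53.8% and 51.1% in intact birds. Alpha-1S held 27.9% and 36.9% in castrated birds, against 8.01% and 2.91% in intact birds. Voltage-dependent L-type calcium channel subunit alpha-1F-like, named for the retinal channel, was too low to be compared, with 4 and 18 counts in castrated and 1 and 2 counts in intact libraries.

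Of the auxiliary calcium channel subunits, voltage-dependent calcium channel subunit alpha-2/delta-1 differed most. This extracellular protein, the binding site of gabapentin in mammals, carries channels to the synapse. It stood at 47.0 CPM in the spring castrated and 48.6 CPM in the autumn castrated library, against 472 CPM in the spring intact and 259 CPM in the autumn intact library. The ratios were -3.31 (-3.49 to -3.16) for spring and -2.40 (-2.56 to -2.27) for autumn, and both contigs with at least 40 counts were lower in both pairs.

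The other alpha-2/delta subunits were not called lower. Alpha-2/delta-2, the highest of them per length (70.8 and 52.2 TPM in castrated, 74.9 and 88.4 TPM in intact libraries), stood at 302 and 227 CPM in the castrated against 391 and 329 CPM in the intact libraries. Its ratios were -0.37 (-0.45 to -0.29) and -0.54 (-0.62 to -0.46). Alpha-2/delta-3 was at 0.05 (-0.06 to 0.17) for spring and -0.39 (-0.50 to -0.28) for autumn. The low alpha-2/delta-4, known from the retina, was 2-fold higher in castrated birds in spring (1.13, 0.25 to 2.72), on 23 counts against 9. Alpha-2/delta-1 held 8.83% and 11.5% of the family's counts in castrated birds of spring and autumn, against 45.5% and 33.3% in intact birds.

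Calcium channel beta subunits are cytoplasmic proteins that hold the pore subunit at the membrane. Voltage-dependent L-type calcium channel subunit beta-2 stood at 116 and 85.9 CPM in castrated birds of spring and autumn, against 325 and 248 CPM in intact birds. Its ratios were -1.48 (-1.60 to -1.37) for spring and -1.53 (-1.65 to -1.41) for autumn. Of its 7 contigs with at least 40 counts, 4 were lower in both pairs and 0 higher in both. The match covers at most 26.4% of the length of any of them. The second most abundant contig stood at -0.26 in spring and -0.49 in autumn, so the ratio rests on the sum. Beta-3, the highest per length (43 and 27.7 TPM in castrated, 53.5 and 60.0 TPM in intact libraries), stood at 147 and 91.7 CPM in castrated against 185 and 178 CPM in intact birds. Its ratios were -0.33 (-0.45 to -0.21) for spring and -0.96 (-1.08 to -0.84) for autumn. Beta-1 was at -0.72 and -0.81 on at most 26 counts a library. Beta-4 was not compared, with 0 counts in both castrated libraries, which allows up to 0.429 CPM in spring and 0.298 CPM in autumn, and 4 and 1 counts in the spring and autumn intact libraries.

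Of the gamma subunits, most of which in mammals bring AMPA receptors rather than calcium channels to the synapse, none was called in both pairs. Voltage-dependent calcium channel gamma-2 subunit (stargazin), the highest per length by its mean over libraries and below gamma-3 in both intact ones, stood at 155 and 125 CPM in castrated birds of spring and autumn, against 117 and 119 CPM in intact birds. Its ratios were 0.41 (0.28 to 0.54) for spring and 0.07 (-0.05 to 0.20) for autumn. Gamma-3 was at -0.86 (-0.99 to -0.73) and -0.85 (-0.98 to -0.73), and gamma-5 at -0.31 (-0.53 to -0.09) and -1.16 (-1.38 to -0.97). Voltage-dependent calcium channel gamma-like subunit was above 0 in both pairs, at 0.58 (0.07 to 1.16) and 0.44 (0.03 to 0.90). Gamma-2 held 50.1% and 47.1% of the family's counts in castrated birds, against 32.5% and 31.9% in intact birds. Gamma-1, the muscle subunit, had 3 counts in the autumn intact library and 0 in the other 3.

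**Figure D3:**
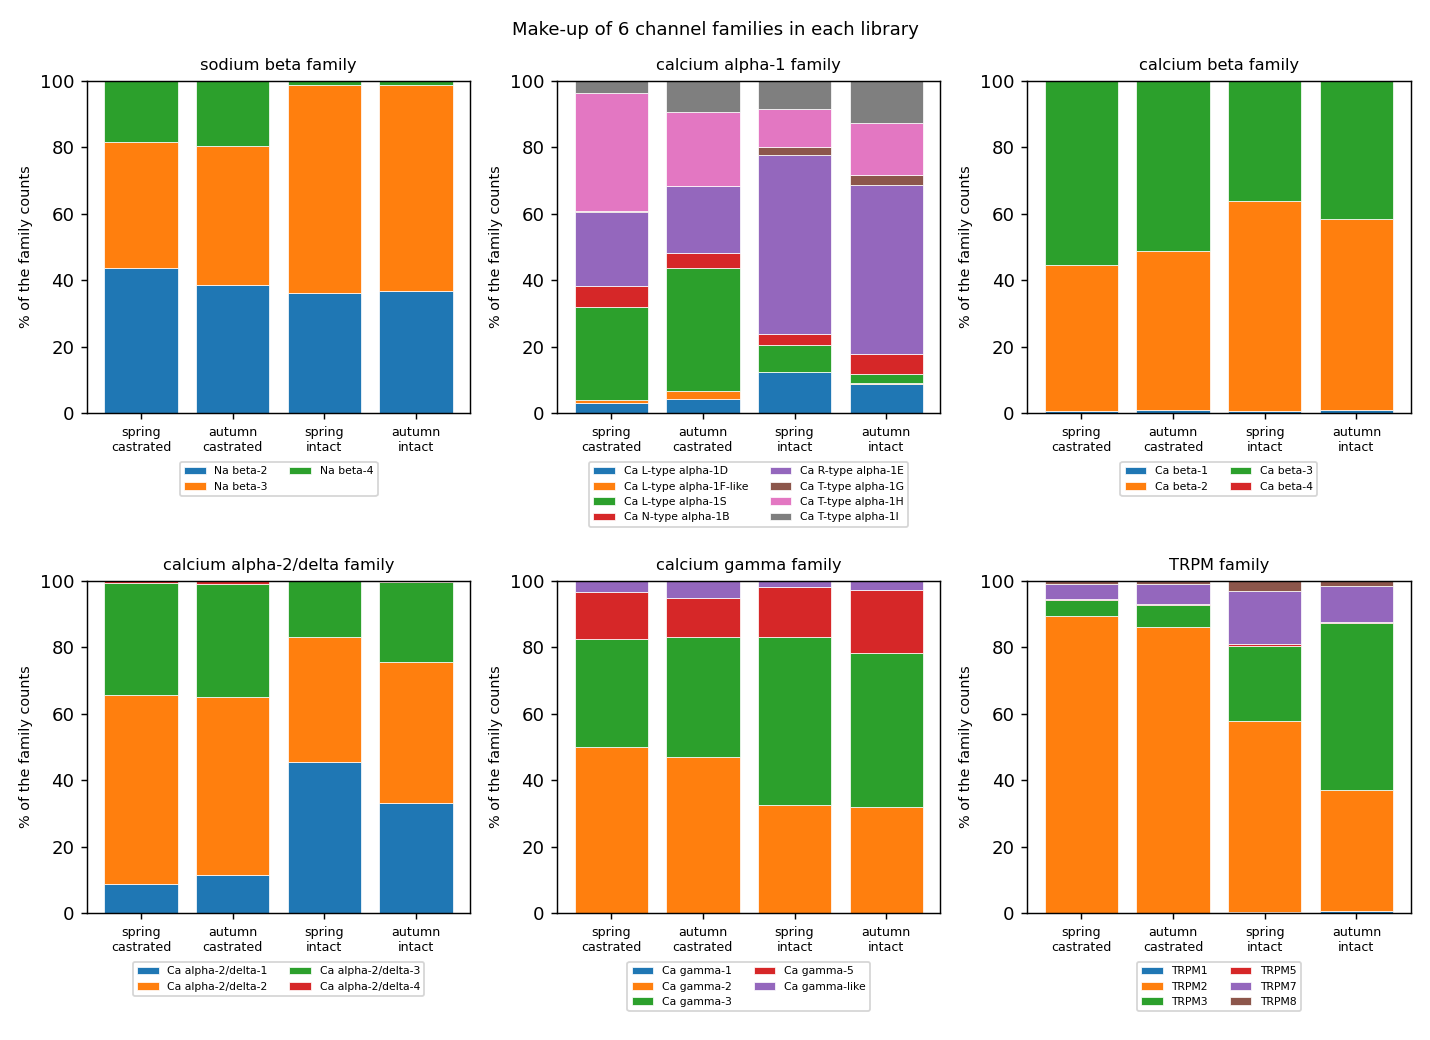
Share of each subunit in the summed counts of its family (%), for 6 families, in the 2 castrated and the 2 intact libraries. Sodium beta-4, alpha-1S, alpha-2/delta-2 and TRPM2 take larger shares in the castrated libraries, and sodium beta-3, alpha-1E, alpha-2/delta-1 and TRPM3 take larger shares in the intact ones.

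TRP channels of subfamily M split in both directions. TRPM2 (transient receptor potential cation channel subfamily M member 2), opened by ADP-ribose and oxidative stress and a heat sensor of preoptic neurons in the mouse, had the highest mean CPM of the 43 names over the 4 libraries, though not the highest in the intact ones. It stood at 1107 CPM in the spring castrated and 924 CPM in the autumn castrated library, against 354 CPM in the spring intact and 324 CPM in the autumn intact library. The ratios were 1.65 (1.58 to 1.71) for spring and 1.51 (1.45 to 1.58) for autumn. All 5 of its contigs with at least 40 counts, which match the flycatcher protein at 94.5% to 98.9% identity, were higher in both castrated libraries. Per length it was also the highest TRP channel, with 275 and 240 TPM in castrated birds, against 100.03 and 76.3 TPM in intact birds.

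TRPM3, opened by heat and by the steroid pregnenolone sulfate, stood at 57.8 CPM in the spring castrated and 69.0 CPM in the autumn castrated library, against 139 CPM in the spring intact and 452 CPM in the autumn intact library. The autumn intact library was far above the other 3. The castration ratios were -1.26 (-1.43 to -1.10) for spring and -2.70 (-2.83 to -2.59) for autumn, and on the most abundant contig alone the spring ratio was -0.40. The mouse gene is known from the choroid plexus. The summed level of choroid plexus markers was likewise highest in the autumn intact library, but AQP1 was highest in autumn castrated birds (41.7 CPM). In spring the markers went both ways, with castration ratios from -0.60 (AQP1) to 1.80 (KCNJ13). Their summed level over 6 measured markers was 880 CPM in spring castrated, 1845 CPM in autumn castrated, 316 CPM in spring intact and 7865 CPM in autumn intact birds, of which TTR gave 805, 1751, 238 and 7632 CPM. Their part in the TRPM3 result was not tested.

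TRPM1, known from retinal bipolar cells and pigment cells, was low throughout, with 2 and 8 counts in castrated birds of spring and autumn, against 12 and 47 counts in intact birds. Its ratios were -1.44 (-5.72 to -0.35) for spring and -2.41 (-4.29 to -1.91) for autumn, and the spring ratio was -0.67 with 2 CPM added. The summed counts of the other subfamily M channels did not reach 2-fold in either season. TRPM7, a channel fused to a kinase, was at -0.81 (-1.0 to -0.64) and -0.58 (-0.74 to -0.43). Its most abundant contig, covered over 88.4% of its length, stood at -1.49 and -1.27. The additive fit, which holds no spread between birds, called TRPM7 lower at a log2 ratio of -0.70. That fit also called calcium gamma-3 (-0.86) and sodium type 5 alpha-like (-1.35) lower, which were not 2-fold lower in both pairs either. The cold and menthol sensor TRPM8 was at -0.65 (-1.08 to -0.27) and -0.39 (-0.81 to -0.00). Its most abundant contig, matched at 56.5% identity so that its name is uncertain, stood at -1.66 and -1.74. The next contig, matched at 98.7% identity, stood at -0.02 in spring and 3.87 in autumn, with 0 counts in the autumn intact library. A shorter contig of 98.7% identity had 26.2 counts in that library. TRPM5, the channel of taste cells, was at 0.37 (-0.45 to 1.32) and 0.76 (-0.00 to 1.86). TRPM2 held 89.5% and 86.2% of the family's counts in castrated birds of spring and autumn, against 57.6% and 36.2% in intact birds, and TRPM3 held 4.67% and 6.43% against 22.6% and 50.5%.

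The vanilloid and ankyrin subfamilies were low. TRPV2, the highest of subfamily V per length (2.33 and 2.21 TPM in castrated, 1.77 and 2.66 TPM in intact libraries), stood at 18.7 and 17.0 CPM in castrated birds of spring and autumn, against 14.2 and 21.6 CPM in intact birds. Its ratios were 0.39 (0.02 to 0.78) and -0.34 (-0.67 to -0.03). TRPV4, an osmotic and warmth sensor, was at 0.71 (0.06 to 1.55) and 0.23 (-0.41 to 0.94). TRPA1, a sensor of irritants and in the chicken also of heat, had 26 and 25 counts in the castrated and 23 and 31 counts in the intact libraries, with ratios of 0.21 (-0.62 to 1.12) and -0.65 (-1.58 to 0.05). TRPV3 and TRPV5 had at most 5 counts in a library and were not compared.

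TRPV1, the capsaicin and heat receptor of mammals, was the 1 channel gene 2-fold apart in opposite directions in the 2 castration pairs (0.597% of all genes). It had 12 counts in the spring castrated and 62 counts in the autumn castrated library, against 69 counts in the spring intact and 19 counts in the autumn intact library. The castration ratios were -2.16 (-3.48 to -1.56) for spring and 1.12 (0.50 to 2.08) for autumn. Its most abundant contig, with 58.7% of its counts, matches the flycatcher protein at 44.1% identity, so that its name is uncertain. With matches of at least 70% identity the ratios were -1.07 in spring and -0.25 in autumn.

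Fewer channel genes were 2-fold apart between the seasons than between castrated and intact libraries, and the same held over all genes. Between the castrated libraries, 0 of 38 were at least 2-fold higher in spring (2.49% of all genes) and 3 were lower (5.41%). Between the intact libraries 4 were higher in spring (2.54% of all genes) and 2 were lower (4.48%). In both gonadal states together 0 were higher (0.237%) and 0 were lower (0.635%), and 1, TRPV1, was apart in opposite directions (0.682%). The median spring over autumn ratio of the 38 was 0.05 in castrated and 0.09 in intact birds, against -0.00 and 0.02 over all genes. The additive edgeR fit called 0 genes for season, higher (0%) or lower (0%), with 530 genes and 4 of the channel genes at an unadjusted p under 0.05, and the smallest adjusted p of a channel gene was 0.876.

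The 3 names lower in spring among castrated birds were sodium channel type 1 alpha (-1.29, -1.99 to -0.81), calcium channel alpha-1I (-1.27, -2.23 to -0.67) and TRPV1 (-1.59, -2.87 to -0.94). In intact birds these stood at -0.06 (-0.36 to 0.24), -0.33 (-0.66 to -0.03) and 1.69 (1.13 to 2.69). On its most abundant contig alone, alpha-1I was at 0.84 in castrated birds. The spring castrated library, the lowest of the 4 for each of these names, is also part of their spring castration ratios.

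TRPM3 and TRPM1 were called 2-fold lower in spring among intact birds and not among castrated birds, and the difference was not tested. TRPM3 stood at -0.25 (-0.44 to -0.08) in castrated and -1.70 (-1.81 to -1.60) in intact birds, and TRPM1 at -0.72 (-4.75 to 0.85), on 2 and 8 counts, and -1.68 (-3.01 to -1.02). With 0.1 CPM added TRPM1 was 2-fold lower in both gonadal states. Higher in spring among intact birds were TRPV1, alpha-1S (1.62, 1.20 to 2.22), sodium channel type 8 alpha-like (1.07, 0.63 to 1.64) and sodium channel modifier 1 (1.06, 0.37 to 2.09). For alpha-1S and modifier 1 the autumn intact library was the lowest of the 4, and the same library enters their autumn castration ratios. Short of 2-fold, alpha-2/delta-1 was at -0.05 (-0.25 to 0.16) in castrated and 0.86 (0.78 to 0.94) in intact birds, a difference that was not tested. Calcium channel beta-3 stood at 0.67 (0.55 to 0.81) in castrated and 0.05 (-0.06 to 0.16) in intact birds, and sodium channel type 2 alpha-like at 0.62 (0.51 to 0.73) and 0.22 (0.16 to 0.28). Of the 20 type 2 alpha-like contigs with at least 40 counts, 6 were higher and 12 lower in spring among castrated birds. Its most abundant contig, covered by the match over 15.9% of its length, stood at 1.14 there, so the ratio of 0.62 rests largely on that contig.

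**Figure D4:**
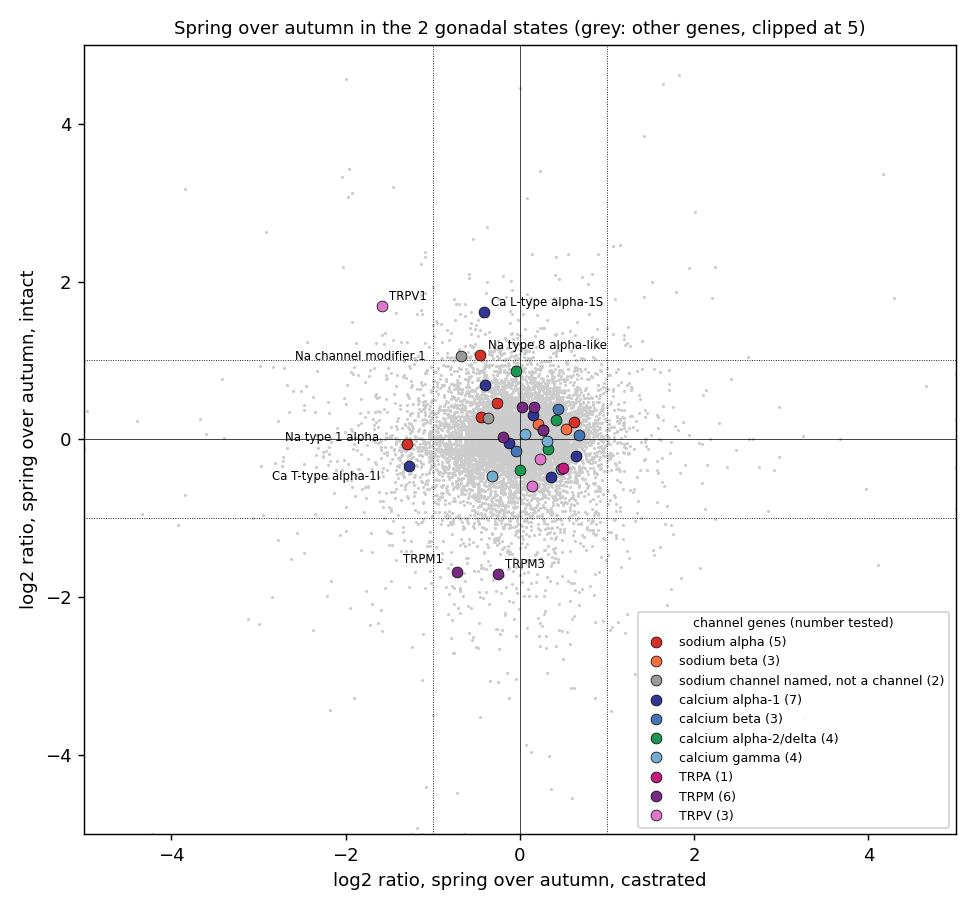
Log2 ratio of spring over autumn in castrated (x axis) and in intact birds (y axis) for the 38 channel genes (coloured by family) and all other genes (grey), with dotted lines at 2-fold. Most channel genes lie inside the dotted lines on both axes, and none lies in the upper right or lower left corner.

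The sums above rest on 220 contigs, of which 119 had at least 40 counts over the 4 libraries and held 98.8% of the channel counts. Of these 119, 66 had a ratio below 0 in both castration pairs and 23 above 0 in both. The shares over all contigs were not computed. Contigs of a name can share reads, and 20 of the 119 are of sodium channel type 2 alpha-like, so they are not separate measurements. Their median identity to the flycatcher protein was 98.3%, and 107 matched at 90% or more. The 20 such contigs of sodium channel type 2 alpha-like were all lower in the spring castrated library, and 18 of them were lower in autumn too. All 8 of sodium channel type 2 alpha were lower in spring and 6 in autumn, and the 3 of TRPM3 were lower in both pairs. There were 18 contigs with 0 counts in at least 1 library, among them contigs of sodium beta-3 and of calcium beta-2.

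**Figure D5:**
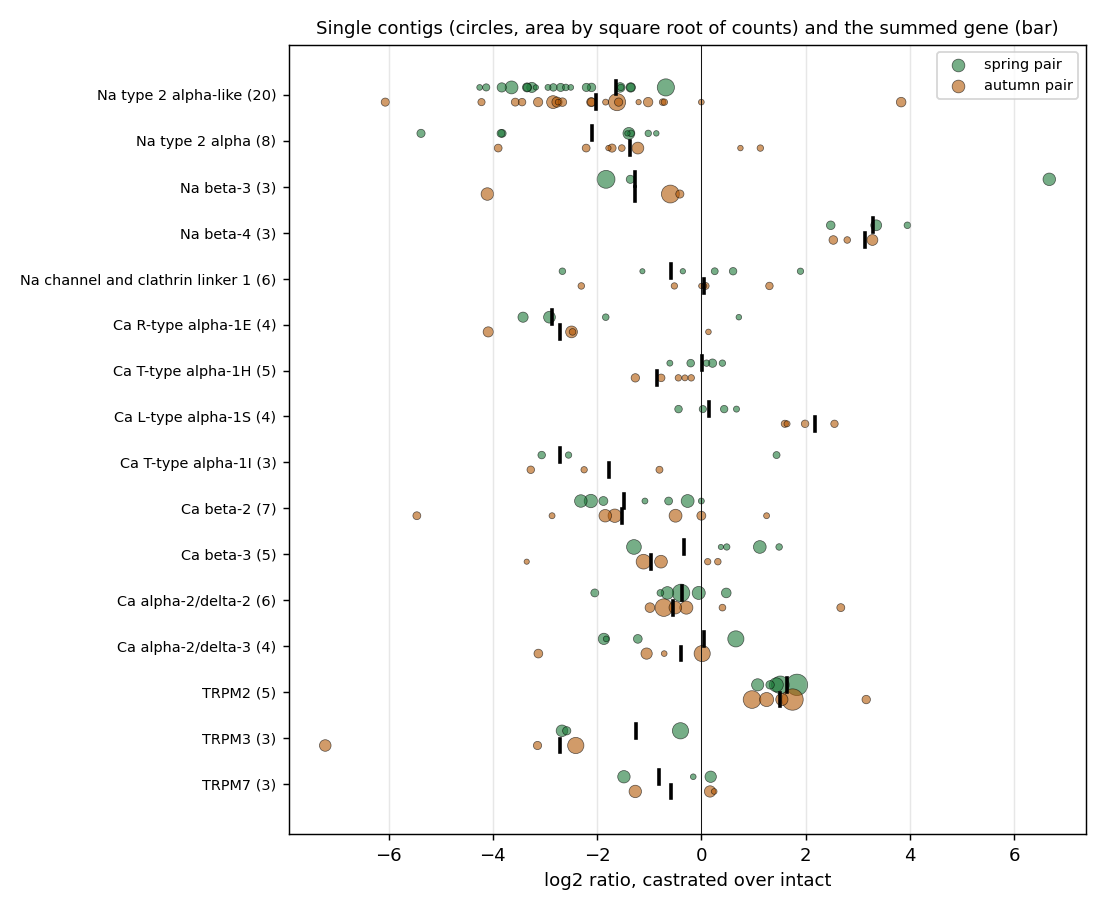
Log2 ratio of castrated over intact for single contigs with at least 40 counts (circles, spring above autumn for each gene), for the 16 names with at least 3 such contigs, with the ratio of the summed gene as a black bar. Contigs of sodium channel type 2 alpha-like lie left of 0 in spring, those of sodium beta-4 and TRPM2 lie right of 0 in both pairs, and those of sodium beta-3 spread to both sides.

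Genes with longer assembled contigs were more often lower in castrated birds over the whole table. Of genes with a contig length at or above the channel median of 1968 bases (weighted by counts), 12.7% reached 2-fold lower in both castrated libraries. Of genes with shorter contigs, 6.5% did. The channel median was close to that of all genes, 1992 bases. Contigs can be pieces of a gene, so this length is not gene length, and the part of gene length was not tested.

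Of the hyperpolarization-activated channels, which carry the pacemaker current, HCN3 and HCN4 were added after their values had been seen, and neither reached 2-fold in either castration pair. HCN3 stood at 56.1 and 43.9 CPM in castrated birds of spring and autumn, against 69.2 and 50.02 CPM in intact birds (-0.30 and -0.19). HCN4, at 1.43 and 1.79 CPM in castrated against 2.19 and 0.811 CPM in intact libraries, was at -0.48 and 0.80.

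Genes that work with these channels were taken from lists of TRP relatives, other sodium and cation channels, calcium release and extrusion, and channel partners. None of their members was 2-fold higher in both castrated libraries, where 4.53% of all genes were and 9.61% were 2-fold lower. None differed 2-fold the same way in both season pairs (0.237% of all genes higher in spring and 0.635% lower). Of 8 measured TRP relatives outside the rule, 2 were lower in both castrated libraries, the receptor-operated channels TRPC4 (-1.08 in spring and -2.15 in autumn) and TRPC5 (-2.48 and -2.24).

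Of 13 other sodium and cation channels, 4 were lower in both (beside 9.61% of all genes). These were the sodium leak channel NALCN (-2.77 in spring and -1.63 in autumn), its partners UNC79 (-1.06 and -1.46) and UNC80 (-2.33 and -2.16), and the cyclic nucleotide-gated channel CNGA3 (-2.41 and -2.46). NALCN, which sets the resting potential, stood at 29.6 and 42.5 CPM in castrated birds of spring and autumn, against 204 and 133 CPM in intact birds. NALCN, UNC79 and UNC80 form 1 complex, and all were on the lower side.

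Of 18 genes of calcium release and extrusion, 7 were lower in both castrated libraries (beside 9.61% of all genes). They were led by the calcium pump of the plasma membrane ATP2B2 (-4.17 in spring and -6.06 in autumn), the ryanodine receptor RYR2 (-3.56 and -2.78), the store sensor STIM2 (-3.30 and -3.23) and the inositol trisphosphate receptor ITPR1 (-2.40 and -2.53). ATP2B2 stood at 8.01 and 2.08 CPM in castrated birds, against 153 and 172 CPM in intact birds. Their close relatives RYR3 (-0.27 and -0.31), ITPR2 (0.14 and -0.46) and ITPR3 (-0.48 and -0.29) did not reach 2-fold.

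Of 19 channel partners, 6 were lower in both (beside 9.61% of all genes). They were led by the active zone protein RIMS2 (-2.73 in spring and -1.72 in autumn), the HCN trafficking protein PEX5L (-1.87 and -2.21), the sodium channel modulator FGF14 (-1.94 and -1.53) and the ubiquitin ligase NEDD4L (-1.61 and -2.25). FGF12, a relative of FGF14, was at 0.01 and 0.04. In the same castrated libraries the telencephalon markers were mostly lower, and the midbrain and hindbrain markers and the pituitary markers mostly higher. Their part in these ratios was not tested.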

How the data were processed

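RNA-seq of 4 hypothalamus libraries was analysed, with the group of each taken from the group given in its label. Trimmomatic and kallisto are the tools the submitters' processing notes name. The assembler and the protein search tool were not given in the sources used here. The deposited estimated counts are per contig; kallisto shares them among similar contigs, and the authors did not normalize them. The authors also deposited TPM, which divides by contig length. Contig matches to flycatcher proteins were deposited with an e-value, a bit score, and the percent identity and percent of the contig covered.

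The match with the highest bit score (e-value at most 1e-05) named each contig. Estimated counts were summed per protein name without isoform text and rounded. Matches named 50994 of 507906 contigs listed. CPM used matched totals of 6759920 (spring castrated), 10918774 (autumn castrated), 7258578 (spring intact) and 7122736 (autumn intact) and TMM factors of 1.03, 0.923, 1.01 and 1.04 in that order (edgeR 4.0.16, R 4.3.3). Genes averaging at least 1 CPM were compared. A count of 0 allows up to 3 counts. The additive fit used edgeR's quasi-likelihood test with Benjamini-Hochberg adjustment, and it takes any lack of additivity as error. Intervals and the fit were tested on simulated data. The counts simulated for the fit held no season effect and no lack of additivity, so they cannot check how the fit treats either.

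The channel genes and gene lists were chosen with earlier results of these data known. Values are given for names 2-fold apart in both pairs of a contrast, the highest of each family by summed TPM, and the 3 in each direction per pair whose interval lies farthest from 0. The remaining channel names are given by their ratios or counts. Of each gene list, up to 4 genes with the largest ratios are named. RYR3, ITPR2, ITPR3, FGF12, HOXA3, HOXD3, NPY, NKX2-1, SYT1, TTR, AQP1, KCNJ13 and CHGA were named with their values already known. Some genes are not reported here. Summed TPM overstates genes split into many contigs. Alternatives were DESeq2 1.42.0 size factors, library totals, other filters and added CPM, TPM, stricter matches, the most abundant contig, thinned libraries and, added after seeing the data, contigs covered over at least 50% of their length by the match.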

Additional observations from a re-analysis of the deposited data

Results flagged for a closer look

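TRPV1 (transient receptor potential cation channel subfamily V member 1) was flagged because its ratios ran in opposite directions. Castrated over intact, it was at -2.16 in spring and 1.12 in autumn. Spring over autumn, it was at -1.59 in castrated and 1.69 in intact birds. The difference between the groups was not tested, since each ratio rests on 1 library per group, and all 4 ratios come from the same 4 counts. With matches of at least 70% identity the castration ratios were -1.07 and -0.25 and the season ratios -0.80 and 0.01.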

How the results depend on the processing

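No paired analysis was possible because each group has 1 library and the labels carry no replicate numbers, and leaving out a replicate would leave a group empty. All 12 channel genes lower in both castrated libraries remained so with DESeq2 size factors, library totals, no filter, 0.1 CPM added, stricter matches and thinned libraries. Of the 12, 10 remained above a mean of 5 CPM, 11 with 2 CPM added, 9 with TPM, 8 with the most abundant contig and 8 with contigs at least 50% covered. Sodium channel type 2 alpha-like, sodium beta-3, TRPM1 and TRPM3 were lost with the most abundant contig, and TRPM1 and alpha-1G with TPM. Alpha-1I was too low to compare with TPM, at a mean of 0.893 TPM. It stood at 0.172 and 0.526 TPM in castrated birds of spring and autumn, against 1.21 and 1.67 TPM in intact birds. With contigs at least 50% covered, sodium type 1 alpha was lost, alpha-1G was too low to compare, and sodium beta-3 and calcium beta-2 had no contig left. TRPM7 was gained with stricter matches, the most abundant contig and contigs at least 50% covered. TRPM8, whose most abundant contig matches at 56.5% identity, was gained with the last 2 of these. Also gained were sodium type 5 alpha-like with library totals, and calcium beta-1 and beta-4 with TPM. Calcium beta-3 and alpha-1B were gained with the most abundant contig, and calcium beta-1 with contigs at least 50% covered. Alpha-2/delta-4 was gained as higher in both pairs with contigs at least 50% covered. Over the alternatives, with 30 to 43 channel genes compared, those lower in castrated birds numbered 12 to 16 in spring and 12 to 18 in autumn. Of all genes, 12.3% to 16.4% were lower in spring and 12.5% to 19.0% in autumn. Channel genes higher in castrated birds numbered 2 to 4 in spring and 4 to 7 in autumn. Of all genes, 6.09% to 12.4% were higher in spring and 9.52% to 15.98% in autumn. The 18 lower in autumn came with library totals, where the share of all genes was also at its largest. Sodium beta-4 and TRPM2 stayed higher in both pairs under each alternative. Genes lower in spring among intact birds numbered 1 above a mean of 5 CPM (beside 2.92% of all genes), 4 with TPM (3.24%), 1 with the most abundant contig (8.29%) and 3 with contigs at least 50% covered (7.55%). Genes higher numbered 2 with 2 CPM added (1.39%), 5 with TPM (2.52%) and 5 with the most abundant contig (6.84%). Genes higher in spring among castrated birds numbered 1 with TPM (2.76%), 3 with the most abundant contig (6.76%) and 1 with contigs at least 50% covered (4.61%). Genes lower in spring in both gonadal states numbered 1 with 0.1 CPM added (0.919%) and 1 with contigs at least 50% covered (1.55%). Contigs at least 50% covered aside, signs turned for the autumn castration ratio of calcium channel alpha-1G (0.002967 with TPM, on 2 counts). That of TRPV1 turned too (-0.25 with stricter matches), as did the season ratio of alpha-1I in castrated birds (0.84 with the most abundant contig). The TRPV1 contig of 44.1% identity, which stricter matches leave out, stood at 3.19 in autumn. The 3 alpha-1I contigs with at least 40 counts ranged from -2.22 to 0.82 in that season ratio. Why the contigs of a name differ was not tested. Under the alternatives other than contigs at least 50% covered, 848 ratios of named channel genes were recomputed. Of these, 751 moved by less than their counting interval, 94 by more and 3 turned sign. Signs outside this tally can turn as well. The gamma-2 contig covered over 63.4% of its length stood at -0.33 for spring over autumn in castrated birds, against 0.31 for the sum. Depth limits alpha-1G, TRPM1 and TRPV1, and without replicates no spread between birds is known.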
